A study of Mus musculus with 11 samples.

Results

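Basal and luminal cells of control mammary outgrowths were compared on 6 of the 11 arrays of the series: the 3 labelled basal shLUC and the 3 labelled luminal shLUC, chosen by their titles alone. The study asked what the Wnt receptor Ror2 does in each epithelial layer of the mouse mammary gland, and the shLUC outgrowths, which carry a hairpin against luciferase, are its controls. Primary mammary epithelial cells were infected overnight with lentivirus as single cells and then injected in matrigel, so every cell studied had been through dissociation, infection and regrowth. Luminal and basal cells were sorted from the outgrowths by the surface proteins CD24 and CD29. Their RNA (PicoPure) went through NuGEN Ovation Pico WTA V2 amplification, was labelled with Cy3 and hybridized to 1-colour Agilent arrays. Strain, age and the length of outgrowth are not given in the labels. The labels call the samples biological triplicates and do not say which came from separate animals, so p-values measure the spread between these samples, which may in part be technical. The other 5 arrays, 3 basal and 2 luminal from shROR2 outgrowths, served as a second set for the same contrast.

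The mammary duct is a tube with an inner luminal and an outer basal layer. Luminal cells include a hormone-sensing kind, which carries receptors for oestrogen, progesterone and prolactin, and a secretory kind that makes milk in lactation. Basal cells are mostly myoepithelial: they rest on the basement membrane, carry the keratins of stratified epithelium, and hold smooth muscle actin and myosin with which they contract and eject milk in response to oxytocin.

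Values below are levels on the log2 scale, the processed signal of a probe relative to the 75th percentile of its array, so a level of 0 equals that percentile. Changes are basal minus luminal, as log2 change ± standard error of the limma fit with 3 arrays in each group. A level describes a probe and cannot be set against the level of another probe. On the 6 arrays 53.6% to 59.5% of probes were well above background, and no spot was saturated. Arrays of the same layer correlated at 0.980 to 0.985 and arrays of different layers at 0.905 to 0.912. Over all probes, dim ones included, these ranges were 0.9715 to 0.9784 and 0.9354 to 0.9447. The first principal component (78.6% of the variance) set the 3 basal arrays at 84.8 to 92.1 apart from the 3 luminal ones at -90.5 to -88.3. The number of arrays limits the precision of every comparison. Ror2 was measured by 1 probe that was not well above background on any of the 6 arrays, with levels of -5.18, -5.09 and -5.09 in luminal cells and -3.40, -3.45 and -3.54 in basal cells, so it was not tested.

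The labels were set against defining markers of both layers. Krt14, a keratin of the basal layer, stood at 3.87, 4.03 and 3.88 in the luminal arrays and at 9.31, 9.24 and 9.26 in the basal arrays. Krt18, a keratin of simple epithelium, stood at 7.69, 7.75 and 7.77 in luminal and at 4.90, 4.83 and 4.85 in basal cells. Both keratins were on the side their label gives and no array overlapped with the other layer, while both were well above background on all 6 arrays. Trp63, another marker of basal cells, was not called by its brightest probe and is given below. The proteins used for the sort are encoded by Itgb1 (CD29), which was 1.36 ± 0.10 higher in basal cells, and Cd24a (CD24), at -0.88 ± 0.08. These differences follow from the sort and are no finding.

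Of 27741 features tested, 10444 (37.6%) differed between the layers at an adjusted p under 0.05, with 4891 (17.6%) higher and 5553 (20.0%) lower in basal cells. Among the 13474 named genes, 6143 (45.6%) were called: 3084 (22.9%) were higher and 3059 (22.7%) lower, which is the background for every count of list members below. The median change over all features was -0.07. Changes of at least 2-fold made up 4683 of the calls, 2527 of them higher in basal cells. A named gene counts as measured in both layers if any of its probes was well above background on at least 1 array of each layer. Of such genes that were called, 249 differed at least 10-fold, 168 higher and 81 lower in basal cells. For 1019 called features 1 layer was not well above background on any array: luminal cells for 726 of those higher in basal cells, and basal cells for 293 of those lower. For such a gene the fold is given as a lower bound, the mean of the brighter layer over a floor set in each array of the dim layer by its faintest probe still clear of background, or by the gene's own signal where that was higher. Such a gene passed the filter on dim probes only through the layer where it is bright and so had to differ: its adjusted p is given as a description and supports nothing.

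Among called genes well above background on all 6 arrays, genes of contraction were among the largest increases, and casein and hormone-pathway genes among the largest decreases. Acta2, which encodes smooth muscle actin, stood at 0.93, 0.70 and 0.59 in luminal and at 8.99, 8.81 and 9.06 in basal cells, a 296-fold difference (8.21 ± 0.13, adjusted p = 2.29e-06). Cxcl14, a chemokine gene, followed at -0.87, -0.83 and -1.40 in luminal and 7.02, 6.90 and 6.92 in basal cells (7.98 ± 0.17). After them came the keratin genes Krt5 (7.87 ± 0.13) and Krt17 (7.20 ± 0.19), the contractile genes Cnn1, Myl9, Tpm2 and Myh11, the fatty acid elongase gene Elovl4 (6.76 ± 0.15), and Fstl1, Sparc and Bgn, which encode secreted matrix-associated proteins. In the other direction Fgb, which encodes the fibrinogen beta chain, stood at 3.53, 3.70 and 3.59 in luminal and at -1.25, -1.86 and -1.18 in basal cells (-5.04 ± 0.20, adjusted p = 2.29e-05). Next were the casein genes Csn2 and Csn1s1, the villin-like gene Vill (-4.76 ± 0.21), the prolactin receptor gene Prlr (-4.71 ± 0.16), Tph1, which encodes an enzyme of serotonin synthesis (-4.56 ± 0.18), and the transcription factor genes Msx2 (-4.52 ± 0.43) and Foxa1 (-4.49 ± 0.31). Fam25c, Crym, Tlcd4 and Ly6d complete the 12 largest decreases of such genes, between -4.56 and -4.45. The 24 genes were picked among those whose basal and luminal arrays do not overlap, so their lack of overlap is no finding. Over all features 14902 of 27741 did not overlap.

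**Figure D1:**
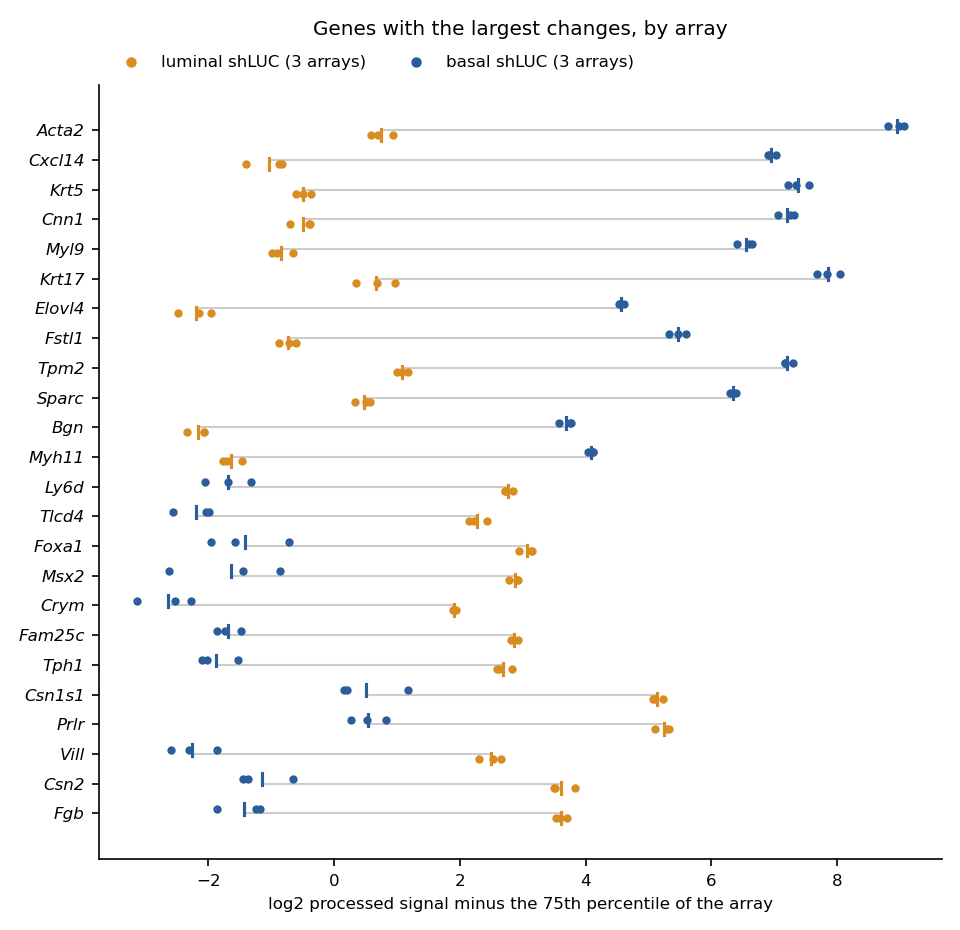
Level of the 24 genes with the largest changes among called genes well above background on all 6 arrays and without overlap between the layers, as log2 signal relative to the array's 75th percentile (x axis), with 1 point per array and a tick at the mean of each layer. The 3 points of a layer lie close together against the gap between the layers: Acta2 lies between 0.59 and 0.93 in luminal and between 8.81 and 9.06 in basal cells.

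The largest bounds belonged to genes that luminal cells did not show above background. For Cdh3, which encodes P-cadherin, basal levels of 4.78, 4.74 and 4.98 gave a bound of at least 251-fold (adjusted p = 9.5e-06). Snai2, a transcription factor gene, had a bound of at least 189-fold (adjusted p = 2.29e-06). Mmp2, the gene of a matrix metalloproteinase, Antxr1, Moxd1, Il17b, the protease inhibitor gene Serpina3n and Igfbp3, which encodes a binding protein of insulin-like growth factors, followed at no less than 89.6, 88.1, 79.1, 73.6, 64.3 and 59.0-fold. The bounds in the other direction were smaller. Timd2 was at least 25.4-fold lower in basal cells (adjusted p = 0.000692), the cytochrome gene Cyp3a57 at least 24.9-fold, Reg3g, which encodes an antimicrobial lectin, at least 17.2-fold and the chemokine gene Cxcl15 at least 17.1-fold. Ctsr and Ctsj, of a rodent cathepsin family with near-identical members, and Gipc2 lay at bounds of 17.0, 12.7 and 11.6, with Cyp3a59 last of the 8. Near-identical family members may share a probe, so the Cyp3a and cathepsin names are uncertain.

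The contraction list holds 16 genes, of which 15 were tested and 15 were higher in basal cells, with a median change of 5.69. The list's median level was -0.39, -0.66 and -0.91 in the luminal arrays and 4.96, 4.98 and 5.13 in the basal arrays. Cnn1, which encodes the actin-binding calponin, stood at -0.39, -0.40 and -0.70 in luminal and at 7.25, 7.06 and 7.31 in basal cells (7.70 ± 0.13, 208-fold). Myl9, the myosin regulatory light chain gene, stood at -0.65, -0.98 and -0.91 against 6.64, 6.42 and 6.60 (7.40 ± 0.13). The myosin heavy chain gene Myh11 changed by 5.73 ± 0.11, the tropomyosin gene Tpm2 by 6.12 ± 0.10 and Tagln, which encodes transgelin, by 4.68 ± 0.13. The smallest p among them was shared by Acta2, Cnn1, Myl9 and Tpm2 (adjusted p = 2.29e-06). Des, the desmin gene of muscle and pericytes, was dim in luminal cells and higher in basal cells by at least 1.69-fold (adjusted p = 0.00917).

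The promoter of Myl9 is shown because, among the promoters looked up for Acta2, Cnn1 and Myl9, it is the one that holds an exact CArG box, the sequence bound by serum response factor, a regulator of smooth muscle genes. The stretch ends at the base before the start of transcription, and capitals mark the CArG box, which begins at base -161. It lies at chr2:156775274-156775463, plus strand (RefSeq, GRCm38.p6):

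Myl9: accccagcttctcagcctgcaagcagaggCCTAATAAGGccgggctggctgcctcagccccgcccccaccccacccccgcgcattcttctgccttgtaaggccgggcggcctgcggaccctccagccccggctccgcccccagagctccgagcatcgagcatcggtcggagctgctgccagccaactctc

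In windows from 250 bases before to 50 after the start, searched on both strands, 1.63% of all 32851 promoters hold a CArG box. The share was 1.98% of 3127 windows of genes higher in basal cells, 1.37% of 3071 windows of genes lower there and 1.19% of 7383 windows of genes not called. Among genes at least 4-fold higher it was 3.26% of 797 windows, 26 in number, and among genes at least 4-fold lower 1.48% of 405 windows. The windows of Acta2 and Cnn1 held no exact match. These shares describe the windows and were not tested.

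The list of oxytocin and calcium signalling, which triggers contraction, moved less as a whole. Of 29 tested genes of 30, 13 were higher and 4 lower in basal cells, with a median change of 0.36. Among the 27 measured in both layers 11 were higher and 4 lower. Oxtr, the oxytocin receptor gene, stood at 0.25, 0.06 and 0.01 in luminal and at 2.35, 2.47 and 2.56 in basal cells (2.35 ± 0.11, adjusted p = 3.96e-05). Kcnmb1, which encodes a subunit of a calcium-activated potassium channel of smooth muscle, was higher by at least 13.1-fold, and Rgs2 (2.44 ± 0.10) and the protein kinase gene Prkg1 (2.37 ± 0.11) rose as well. The store-operated calcium channel gene Orai1 stood at 0.73, 1.10 and 0.67 in luminal and at -0.79, -0.19 and -0.23 in basal cells (-1.24 ± 0.21, adjusted p = 0.00576). Itpr3 (-0.79 ± 0.11) and Itpr2 (-0.52 ± 0.10), which encode calcium release channels, were also lower, though Itpr2 was not called over all 11 arrays (limma adjusted p = 0.355). Of 9 tested caveola genes 5 were higher and 2 lower (median 0.83, or 0.26 in the authors' value table), led by the coat genes Cav1 (3.20 ± 0.09) and Cavin1 (2.81 ± 0.11). The 2 lower ones, Pacsin3 (-1.42 ± 0.12) and Pacsin2 (-0.40 ± 0.09), encode membrane-bending partners, and the call of Pacsin2 was lost over all 11 arrays (limma adjusted p = 0.329). The share of caveola genes that were lower is near that of all named genes.

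Most genes that tie the cell to its matrix were higher in basal cells. Of 24 tested focal adhesion genes, from a list of 25, 20 were higher and 0 lower (median 1.35), led by the actin-binding genes Palld (4.14 ± 0.12), Tns1 (3.52 ± 0.11) and Flna (3.00 ± 0.11) and by Fermt1 (3.16 ± 0.11), which encodes an activator of integrins. Hemidesmosomes anchor keratin filaments to laminin, and 11 of the 12 genes of hemidesmosomes and other laminin receptors were higher (median 1.51). Col17a1, a transmembrane collagen gene of the hemidesmosome, stood at -2.67, -3.33 and -1.93 in luminal cells, with 2 of 3 arrays well above background, and at 4.27, 4.14 and 4.10 in basal cells (6.82 ± 0.34, adjusted p = 5.36e-05). Bcam (2.52 ± 0.10), Itga3 (2.38 ± 0.10) and the syndecan gene Sdc1 (1.81 ± 0.08) changed by less. Plec, the plectin gene, was the 1 member not called, at -0.38 ± 0.12 (adjusted p = 0.0518). It was called lower in basal cells in the authors' value table (-0.45, limma adjusted p = 0.00299). Quantile normalization and normexp background correction, among other settings, also gave that call. Itgb1, the gene of the sorted protein, is among the 11.

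Basement membrane genes followed, with 17 of 19 tested genes higher and 1 lower and a median change of 2.86. The list's median level was 0.20, 0.09 and 0.28 in luminal and 3.04, 3.19 and 3.28 in basal arrays. Col4a2, which encodes a chain of type IV collagen, stood at -0.94, -0.90 and -1.12 in luminal and at 4.27, 4.44 and 4.46 in basal cells (5.37 ± 0.11, adjusted p = 3.36e-06). Col7a1, of the anchoring fibrils beneath stratified epithelium, changed by 4.76 ± 0.10, Col4a1 by 4.73 ± 0.12 and the laminin gene Lama3 by 3.76 ± 0.10. Lama5, the gene of another laminin alpha chain, ran the other way, with 5.48, 5.57 and 5.58 in luminal and 4.94, 4.62 and 4.87 in basal cells (-0.73 ± 0.12, adjusted p = 0.00471). Of 23 tested matricellular and elastic fibre genes 15 were higher and 3 lower (median 2.58, or 2.22 with genes dim in luminal cells at their bounds). Of the 18 measured in both layers 10 were higher and 3 lower. The median was 1.26 in the authors' value table and 1.35 with normexp background correction. Postn, the periostin gene, was at least 49.0-fold and Fbn1, the fibrillin gene, at least 27.0-fold higher, and Sparc (5.87 ± 0.10) and Fbln2 (5.04 ± 0.10) were measured on both sides. The 3 lower ones were Spp1, the osteopontin gene (-4.41 ± 0.29, adjusted p = 0.000145), Ltbp1 (-1.35 ± 0.13) and Ccn1 (-1.12 ± 0.09). Spp1 stood at 2.33, 2.18 and 2.12 in luminal and at -2.07, -2.84 and -1.71 in basal cells.

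Semaphorins and plexins, ligands and receptors of axon guidance that also act between epithelial cells, differed by member. Of 20 tested genes, 9 were higher and 3 lower, the latter a share below that of all named genes. The median was 0.14. It was 0.60 with the mean of all probes of a gene and ran from 0.038 to 0.29 with 1 array left out. The secreted ligand gene Sema3c stood at -2.69, -2.59 and -2.28 in luminal and at 2.03, 1.93 and 1.99 in basal cells (4.50 ± 0.13, adjusted p = 9.24e-06). Sema5a (4.34 ± 0.35, well above background on 1 of 3 luminal arrays), Sema4g (2.65 ± 0.10) and Sema6a (1.54 ± 0.10) were higher too. The ligand gene Sema4d (-1.83 ± 0.22) and the receptor genes Plxnb3 (-0.81 ± 0.19) and Plxnb2 (-0.69 ± 0.09) were lower. The call of Plxnb3 was lost without luminal replicate 3 and without basal replicate 3.

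Keratins and other genes of basal stratified epithelium were higher for 16 of 20 genes and lower for 2, with a median of 2.55 (2.35 with 4 genes dim in luminal cells at their bounds). Of the 16 measured in both layers 12 were higher and 2 lower. Krt5, the partner keratin of Krt14, stood at -0.61, -0.50 and -0.37 in luminal and at 7.34, 7.22 and 7.56 in basal cells (234-fold, adjusted p = 2.29e-06). Ngfr, the nerve growth factor receptor gene, was 4.80 ± 0.60 higher, though only 1 of 3 luminal arrays was well above background. The 2 lower members were Krt6a, a keratin gene of stressed or inner stratified layers (-1.26 ± 0.12, adjusted p = 0.000691), and the growth factor receptor gene Fgfr2 (-0.41 ± 0.11). The call of Fgfr2 was lost with 5 of the 6 arrays left out in turn and over all 11 arrays (limma adjusted p = 0.0786). Krt6b, its close relative, was not called at -0.20 ± 0.18. Krt6a and Krt6b are near-identical, so their probes may share signal.

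Regulators described in basal cells were higher for 13 of 18 tested genes, of 21 listed, and lower for 2 (median 1.36, or 0.72 in the authors' value table). Of the 16 measured in both layers 11 were higher. Beside Snai2, Id4, an inhibitor of helix-loop-helix factors, was higher by at least 33.6-fold (adjusted p = 2.23e-06). The homeobox gene Irx4 stood at -2.83, -2.44 and -2.50 in luminal and at 1.56, 1.93 and 1.72 in basal cells (4.32 ± 0.16), and Egr2 changed by 3.28 ± 0.09. Sox10 ran against the list, with 4.53, 4.80 and 4.60 in luminal and 4.01, 3.64 and 3.90 in basal cells (-0.80 ± 0.14, adjusted p = 0.00636), as did Mrtfb, a cofactor of serum response factor (-0.66 ± 0.11).

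Trp63, the gene of the p63 factor that defines basal epithelium, depended on the probe. The brighter of its 2 probes, which stands for the gene in the counts above, read 6.52, 6.43 and 6.58 in luminal and 6.66, 6.62 and 6.70 in basal cells (0.15 ± 0.09, adjusted p over probes 0.249). The other read -3.48, -4.85 and -2.47 in luminal cells, well above background on 1 array, and 3.67, 3.69 and 3.64 in basal cells (7.27 ± 0.57, adjusted p over probes 0.000276). Mcam, a gene of smooth muscle and vessel walls taken up after its values were seen, showed the same: 1 probe read 10.07, 10.07 and 9.88 against 10.00, 9.71 and 9.92, and the other -3.40, -4.21 and -3.28 against -1.07, -1.27 and -1.15 (adjusted p over probes 0.000860), with no luminal array well above background. Of 1732 genes with several probes whose brightest was not called, 412 had another probe that was, and in 52 of these the other probe changed at least 4-fold. That count was made after the values were seen. It bears on genes with several probes given as not called.

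With each probe tested on its own, 38.2% of 31666 probes were called, 18.5% higher and 19.8% lower in basal cells. Probes of the same gene were called in opposite directions for 34 of 3276 genes with several tested probes (1.04%). Bglap3, of the osteocalcin family, was lower in basal cells by 2 probes (-3.31 ± 0.14 and -2.75 ± 0.14) and higher by its other probe (2.05 ± 0.09), but its family has near-identical copies, so the name is uncertain. Myh14, a non-muscle myosin heavy chain gene, read 1.62, 1.89 and 1.68 in luminal and 0.24, 0.32 and 0.18 in basal cells with 1 probe (-1.48 ± 0.11). Its other probe read 0.30, 0.24 and 0.43 against 1.46, 1.53 and 1.65 (1.23 ± 0.10). For Loxl2, which encodes a collagen cross-linking enzyme, 1 probe was lower (-0.75 ± 0.11) and 2 were higher (1.52 ± 0.16 and 0.66 ± 0.17). For these genes no single direction can be given.

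**Figure D2:**
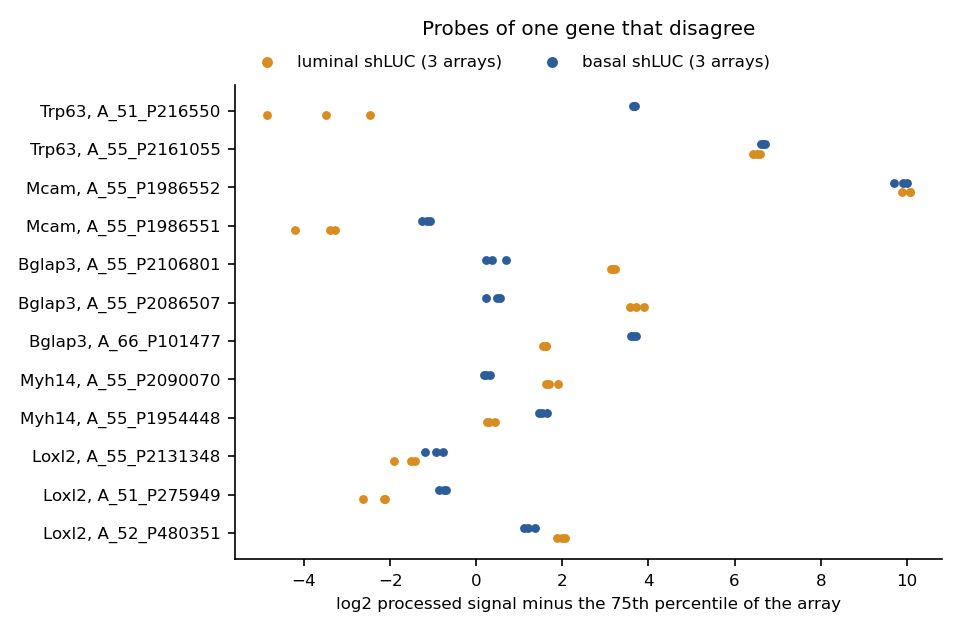
Level per array of each tested probe of Trp63, Mcam, Bglap3, Myh14 and Loxl2, as log2 signal relative to the array's 75th percentile, with 3 luminal and 3 basal arrays per probe. For Trp63 and Mcam 1 probe lies at about the same level in both layers and the other separates them, and for Bglap3, Myh14 and Loxl2 probes of the same gene separate the layers in opposite orders.

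Luminal regulators were lower in basal cells for 14 of 18 tested genes, of 21 listed, and higher for 2 (median -1.19). Cited1, a transcription cofactor gene, stood at 5.73, 5.90 and 5.85 in luminal and at 1.39, 1.41 and 1.47 in basal cells (-4.41 ± 0.09, adjusted p = 3.41e-06). Foxa1, a partner of the oestrogen receptor, stood at 2.95, 3.13 and 3.15 against -1.95, -0.71 and -1.57. Elf5, a regulator of alveolar cells, changed by -4.08 ± 0.17 with 1 of 3 basal arrays well above background, and Ehf by -3.53 ± 0.10. The 2 members higher in basal cells were Runx1, at 1.51, 1.48 and 1.47 in luminal and 3.11, 3.14 and 3.24 in basal cells (1.68 ± 0.09, adjusted p = 6.18e-05), and Tbx3 (0.64 ± 0.14, adjusted p = 0.0156). The call of Tbx3 was lost over all 11 arrays (limma adjusted p = 0.0549) and without basal replicate 2. Grhl2, a regulator of epithelial junctions, was not called at -0.12 ± 0.13.

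Adhesion, tight junction and surface protease genes of simple epithelium were lower in basal cells for 28 of 29 genes and higher for 0, with a median of -2.43. Of the 27 measured in both layers 26 were lower. The list's median level was 2.80, 3.11 and 2.81 in luminal and 0.09, 0.32 and -0.03 in basal arrays. Cldn3, a claudin gene of tight junctions, stood at 3.51, 3.60 and 3.57 in luminal and at 0.03, -0.20 and -0.09 in basal cells (-3.64 ± 0.10, adjusted p = 7.71e-06). Cldn8 was at least 5.91-fold lower and dim in basal cells, and the keratin genes Krt19 (-3.95 ± 0.12), Krt18 (-2.87 ± 0.08) and Krt8 (-2.40 ± 0.09) belong to the same list.

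Apical polarity and membrane traffic genes were lower for 16 of 24 tested genes, of 28 listed, and higher for 4 (median -0.77, or -0.42 in the authors' value table). Of the 22 measured in both layers 14 were lower and 4 higher. Mal2, a gene of apical transport, stood at 1.46, 1.75 and 1.66 in luminal and at -1.53, -1.53 and -1.68 in basal cells (-3.20 ± 0.11, adjusted p = 1.75e-05). The polarity gene Crb3 (-3.00 ± 0.11), the recycling gene Rab11fip1 (-2.90 ± 0.13) and the actin nucleator gene Cobl (-2.02 ± 0.11) fell too. The core polarity genes Pard3 (0.77 ± 0.14, adjusted p = 0.00717) and Prkci (0.54 ± 0.09) and the microvillus gene Eps8 (1.46 ± 0.21) were higher in basal cells.

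Hormone receptors and genes of the hormone-sensing luminal cell were lower in basal cells for 15 of 18 tested genes, of 20 listed, and higher for 3, with a median of -3.01 (-1.89 in the authors' value table). Prlr, the prolactin receptor gene, stood at 5.30, 5.33 and 5.10 in luminal and at 0.52, 0.27 and 0.83 in basal cells. Esr1, the oestrogen receptor gene, stood at 1.53, 1.53 and 1.57 against -1.49, -0.91 and -0.87 (-2.64 ± 0.18, adjusted p = 0.000184), and Areg, the amphiregulin gene that oestrogen induces, changed by -3.33 ± 0.12. The 3 higher members were Penk, the enkephalin precursor gene (2.90 ± 0.40, adjusted p = 0.00263), the growth factor receptor gene Igf1r (1.40 ± 0.12, adjusted p = 0.000395) and Tbx3, with the limit given above. Penk stood at -0.92, -2.40 and -2.11 in luminal and at 1.04, 0.88 and 1.35 in basal cells, without overlap.

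Milk protein genes and genes of the secretory progenitor were lower for 17 of 20 genes and higher for 2, with a median of -2.98 (-2.76 with 2 genes dim in basal cells at their bounds, -1.80 in the authors' value table). Csn2, the beta-casein gene, stood at 3.51, 3.84 and 3.50 in luminal and at -0.65, -1.37 and -1.45 in basal cells (-4.77 ± 0.24, adjusted p = 5.37e-05). Csn1s1, the alpha-S1-casein gene, stood at 5.09, 5.24 and 5.08 against 1.18, 0.16 and 0.20 (-4.62 ± 0.29). The receptor gene Kit (-3.26 ± 0.08), Lalba, the alpha-lactalbumin gene (-3.69 ± 0.13), Wfdc18 (-3.15 ± 0.10) and the transferrin gene Trf (-2.70 ± 0.10) were lower too, and Wap, the whey acidic protein gene, was at least 3.49-fold lower and dim in basal cells. The basal replicates spread for the caseins: Csn1s2a read -1.70, -3.27 and -4.42 there against 2.24, 2.33 and 2.30 in luminal cells (-5.42 ± 0.65, adjusted p = 0.00158), with 2 of 3 basal arrays well above background. The 2 higher members were the antimicrobial genes Lpo, the lactoperoxidase gene (1.09 ± 0.12, adjusted p = 0.00127), and Lcn2, the lipocalin gene, at 7.79, 7.96 and 7.92 in luminal and 8.29, 8.15 and 8.36 in basal cells (0.38 ± 0.10, adjusted p = 0.033). The call of Lcn2 was lost with the slide as a block (limma adjusted p = 0.0741) and with 5 of the 6 arrays left out in turn.

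The promoters of Csn2 and Csn1s1 are shown because both hold TTCNNNGAA, the sequence STAT factors bind downstream of the prolactin receptor, shortly before the start. Capitals mark it, at base -93 and -100 in order, and both stretches end at the base before the start. They lie at chr5:87699426-87699615, minus strand, and chr5:87666018-87666207, plus strand (RefSeq, GRCm38.p6):

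Csn2: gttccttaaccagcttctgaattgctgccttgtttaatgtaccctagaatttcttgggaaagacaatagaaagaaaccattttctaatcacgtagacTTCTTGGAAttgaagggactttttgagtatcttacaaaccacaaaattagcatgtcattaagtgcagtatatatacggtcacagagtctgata
Csn1s1: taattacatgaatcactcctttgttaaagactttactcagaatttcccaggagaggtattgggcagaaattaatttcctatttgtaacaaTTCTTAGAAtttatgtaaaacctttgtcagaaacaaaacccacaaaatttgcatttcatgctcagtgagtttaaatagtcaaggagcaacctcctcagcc

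TTCNNNGAA, which reads the same on both strands, was in 8.30% of all promoter windows, in 7.16% of those of genes lower in basal cells, 6.88% of those of genes higher and 7.08% of those of genes not called. The window of Wap held no match, and that of Csn1s2a held one after the start. CAGGTG, the E-box that Snail family proteins such as that of Snai2 bind, was searched on both strands and was in 20.2% of all windows. It was in 22.7% of windows of genes lower in basal cells and 33.3% of the 405 windows of those at least 4-fold lower, against 18.5% for genes higher, 20.7% for those at least 4-fold higher and 17.8% for genes not called. These shares describe the windows and were not tested.

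Secretory functions beyond the milk proteins were divided. Milk fat globule genes were lower for 11 of 22 tested genes and higher for 3 (median -0.44). Scd1, a fatty acid desaturase gene, stood at 4.07, 4.02 and 3.92 in luminal and at 1.39, 1.55 and 1.46 in basal cells (-2.54 ± 0.10, adjusted p = 2.11e-05), and Plin2, a coat gene of lipid droplets, changed by -2.09 ± 0.11. Mfge8 (-1.38 ± 0.10) and Xdh (-1.27 ± 0.13) encode proteins of the globule membrane. The fatty acid transporter gene Cd36, which adipocytes and endothelium also express, ran the other way at 1.72 ± 0.12, with Abcg2 (0.72 ± 0.15) and Rab18 (0.61 ± 0.10).

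Among mucins and O-glycan enzymes 6 of 23 tested genes were lower and 5 higher, shares near those of all named genes, with a median of -0.09. The mucin genes Muc15 (-3.42 ± 0.15), Muc4 (-2.84 ± 0.12) and Muc1 (-2.03 ± 0.23) were lower. The enzyme gene Galnt3 (-1.68 ± 0.19) was lower, but Galnt4 (1.02 ± 0.11), Gcnt2 (1.47 ± 0.20) and St3gal1 (0.60 ± 0.10) were higher. Muc4 stood at 1.42, 1.45 and 1.37 in luminal and at -1.32, -1.65 and -1.31 in basal cells.

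Of 24 tested ion and water transport genes 10 were lower and 7 higher. Of the 22 measured in both layers 10 were lower and 5 higher, the latter a share near that of all named genes. The water channel gene Aqp5 stood at 2.56, 2.53 and 2.51 in luminal and at 0.56, 0.57 and 0.48 in basal cells (-1.99 ± 0.08, adjusted p = 2.89e-05), while Aqp3 stood at 6.61, 6.67 and 6.57 against 7.91, 7.81 and 7.75 (1.20 ± 0.09, adjusted p = 0.000266). Aqp1, a water channel gene also of vessels, was 1.82 ± 0.20 higher. The carbonic anhydrase gene Car2 was lower (-2.40 ± 0.16), whereas Car12 was at least 5.92-fold higher in basal cells. The potassium channel gene Kcnn4 (-3.79 ± 0.23) and the chloride cotransporter gene Slc12a2 (-1.62 ± 0.11) were lower. Of 23 tested detoxification genes 10 were higher and 5 lower, the latter a share near that of all named genes. Among the 20 measured in both layers 9 were higher and 4 lower. The glutathione transferase genes Gsto1 (1.79 ± 0.15), Gstm1 (1.46 ± 0.11) and Gstt1 (1.16 ± 0.10) and the carbonyl reductase gene Cbr3 (3.00 ± 0.19) were higher. Gpx3, the gene of a secreted glutathione peroxidase (-3.66 ± 0.12), Cyp2f2 (-2.50 ± 0.20) and Aldh1a3, of retinoic acid synthesis (-2.25 ± 0.16), were lower.

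General cell functions were read next. Of 30 tested genes of the secretion machinery of endoplasmic reticulum and Golgi, 8 were higher and 7 lower, with a median of 0.03. Both counts are near the background of all named genes. Single members moved: the coat gene Sec24d (1.59 ± 0.12) and the regulator gene Creb3l2 (1.68 ± 0.21) were higher, and the cargo gene Tmed3 (-2.41 ± 0.10) and the unfolded protein regulator gene Xbp1 (-0.83 ± 0.11) lower. Of 30 respiratory chain genes 12 were lower and 2 higher (median -0.18), with small sizes such as -0.59 ± 0.10 for Uqcrfs1, of complex III, and 0.43 ± 0.10 for Ndufa1, of complex I. The 14 calls of this list became 8 with the slide as a block and 5 to 9 with 1 array left out, and Ndufa1 was not called with the slide block (limma adjusted p = 0.0539). Of 20 tested cell cycle genes 10 were lower and 0 higher (median -0.64, or -0.33 in the authors' value table). They became 6 calls with the slide as a block and 6 to 9 with 1 array left out. The replication gene Mcm6 stood at 4.01, 4.15 and 4.13 in luminal and at 1.46, 1.85 and 1.66 in basal cells (-2.44 ± 0.13, adjusted p = 6.06e-05), Birc5 changed by -1.70 ± 0.16 and the proliferation marker gene Mki67 by -1.44 ± 0.13.

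Immediate early and heat shock genes, which sorting itself can induce, split within the family: 7 of 23 were higher and 9 lower (median -0.14). Egr2 stood at 1.15, 1.28 and 1.27 in luminal and at 4.47, 4.55 and 4.52 in basal cells (adjusted p = 7.71e-06), and Egr3 at -0.02, -0.05 and -0.02 against 2.59, 2.48 and 2.67 (2.61 ± 0.09). Fos ran the other way, with 5.86, 5.91 and 5.77 in luminal and 4.19, 4.15 and 4.13 in basal cells (-1.69 ± 0.09, adjusted p = 6.01e-05). Zfp36 (-1.33 ± 0.09), Klf6 (-1.14 ± 0.09) and Btg2 (-1.10 ± 0.10) were lower and Dusp1 (0.95 ± 0.09) higher.

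**Figure D3:**
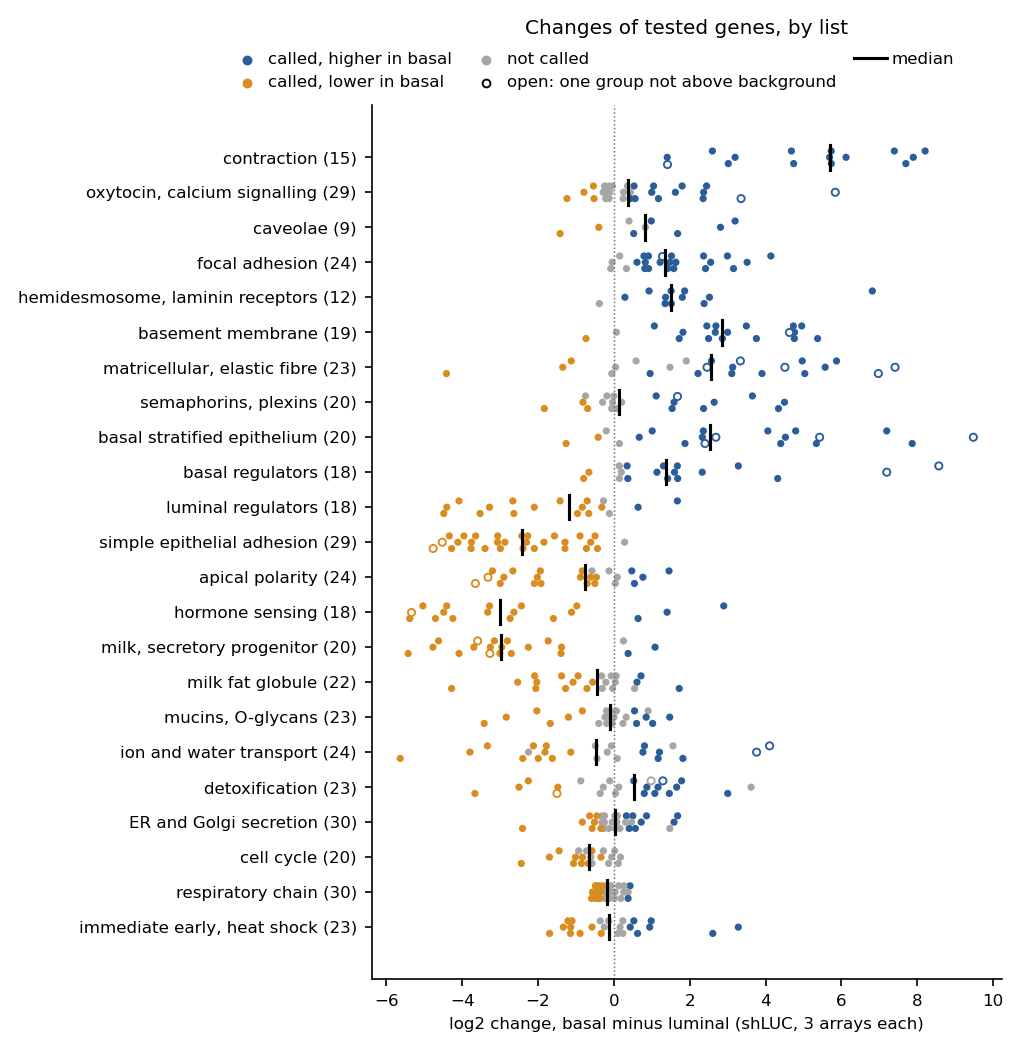
Log2 change, basal minus luminal, of each tested gene of the 23 epithelial and general lists, with 3 arrays per layer, coloured by call at adjusted p under 0.05 and with the number of tested genes in parentheses. Open points are fitted changes of genes with 1 layer not well above background on any array, and the black bar is the list median: contraction lies at 5.69, simple epithelial adhesion at -2.43 and secretion machinery at 0.03.

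Markers of other cell types were read in the same arrays, since a sort on 2 surface proteins can carry other cells along. In bulk RNA fewer cells of a type and less RNA per cell cannot be told apart. Fibroblast markers were higher in basal arrays for 16 of 17 tested markers, of 20 listed, and lower for 0 (median 3.91, or 3.80 with 4 dim markers at their bounds and 2.56 in the authors' value table). Of the 13 measured in both layers 12 were higher. Their summed signal, in units of the 75th percentile of the array, ran from 13.6 to 14.3 in luminal and from 113 to 121 in basal arrays, with 17 markers well above background on all basal arrays. Col1a2, a fibrillar collagen gene, stood at 0.80, 0.42 and 0.62 in luminal and at 4.53, 4.46 and 4.57 in basal cells (3.91 ± 0.12, adjusted p = 1.16e-05). Col6a1 (4.56 ± 0.12) and Col5a1 (6.32 ± 0.22, well above background on 2 of 3 luminal arrays) were higher as well, while Dpt was well above background on none of the 6 arrays. Pdgfra, a defining receptor gene of fibroblasts read for that reason after the values were seen, was dim in luminal cells and stood at -2.86, -3.08 and -3.14 in basal cells, higher by at least 1.08-fold. Fbn1 counts in both this list and the elastic fibre list. The part of such cells in the matrix, matricellular and basement membrane results above was not tested. Nor was their part in the largest changes and bounds of genes higher in basal cells.

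Endothelial markers were higher for 13 of 17 tested markers and lower for 0 (median 2.15, or 0.72 in the authors' value table), and 10 of the 14 measured in both layers were higher, with a summed signal of 13.5 to 13.7 in luminal and 28.1 to 34.6 in basal arrays. Pecam1, a surface gene of endothelium, stood at -1.92, -1.59 and -1.79 in luminal and at 0.37, 0.41 and 0.35 in basal cells (2.15 ± 0.11, adjusted p = 6.58e-05), and Plvap changed by 2.41 ± 0.22. Cd36 and Aqp1, given above, moved with these markers. Of 9 tested pericyte markers, of 14 listed, 4 were higher and 2 lower, the latter a share near that of all named genes. Among the 7 measured in both layers 2 were higher and 2 lower, each a share near that of all named genes. Pdgfrb was at least 2.95-fold and Rgs5 2.26 ± 0.17 higher, while Notch3 (-2.02 ± 0.18) and Anpep (-1.67 ± 0.19) were lower. The summed signal of all pericyte markers ran from 951 to 1081 in luminal and 843 to 1031 in basal arrays, 99.4% of it from the bright Mcam probe. Pericytes share the contractile genes of myoepithelium, and their part in the contraction result was not tested.

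Macrophage and dendritic markers were higher in the luminal arrays, with 13 of 17 tested markers lower in basal cells and 0 higher (median -1.02). H2-Eb1, a gene of antigen presentation, stood at 2.12, 2.20 and 2.15 in luminal and at 0.41, 0.58 and 0.87 in basal cells (-1.54 ± 0.14, adjusted p = 0.000488), Tyrobp changed by -1.37 ± 0.10 and Itgax was at least 2.53-fold lower. Their summed signal was 522 to 550 in luminal and 435 to 510 in basal arrays, 83.0% of it from the probe of Itgam, a marker not called. Without that probe the log2 difference of the sums was -0.62 in place of -0.15. Spp1, lower in basal cells above, is also a macrophage gene, and the part of these cells in that value was not tested. Of 10 tested lymphocyte markers 1 was higher and 1 lower, and 8 of the 18 markers with a probe, among them the defining T and B cell genes Cd3d, Cd3g and Ms4a1, were well above background on none of the 6 arrays. Adipocyte markers gave 4 higher and 3 lower of 10, with summed signals of 20.1 to 22.2 and 32.7 to 36.3. The log2 difference of these sums was 0.71, and -0.45 without Fabp4, which gave 47.7% of the sum. Schwann and nerve markers gave 3 higher and 3 lower of 8 (sums of 380 to 434 and 385 to 429), and 2 of that list, Ngfr and Sox10, are also in lists of basal genes. Erythroid markers gave 0 higher and 2 lower of 5, with sums of 7.13 to 7.81 and 2.21 to 4.81. Such sums add the signals of different probes, so the brightest probes weigh most. With 3 arrays a side the exact permutation test of a sum cannot go below p = 0.1, which the fibroblast, endothelial, macrophage, adipocyte and erythroid sums reached.

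**Figure D4:**
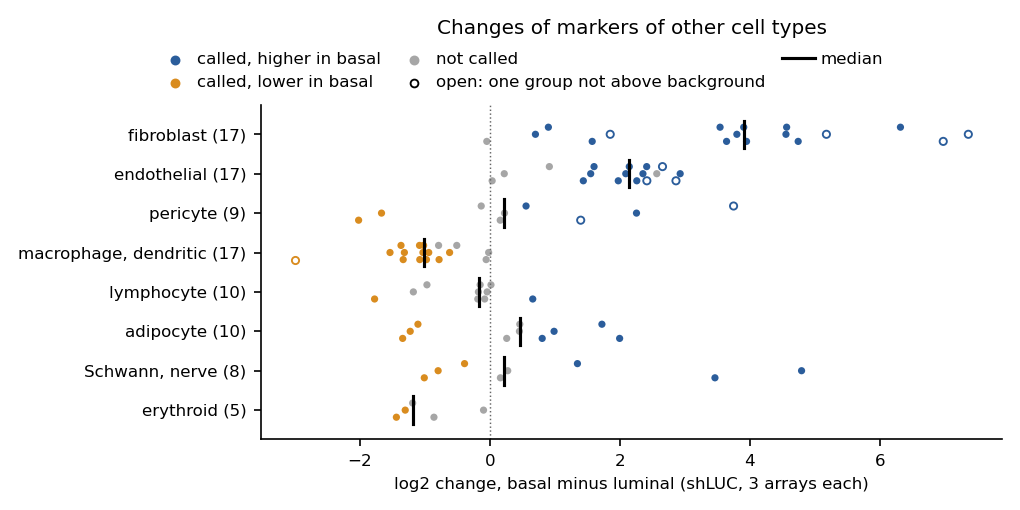
Log2 change, basal minus luminal, of each tested marker of 8 other cell types, with 3 arrays per layer, coloured by call and with the number of tested markers in parentheses. Open points are fitted changes of markers with 1 layer not well above background on any array, and the black bar is the list median: fibroblast markers lie at 3.91, endothelial at 2.15 and macrophage and dendritic at -1.02.

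The arrays lay on 2 slides that each held both layers: luminal replicate 1 with basal replicates 1 and 3, and luminal replicates 2 and 3 with basal replicate 2. Acta2 changed by 8.09 on the first and 8.16 on the second slide, and the contraction median was 5.24 and 5.56, the simple epithelial adhesion median -2.47 and -2.38. A fit with slides as blocks called 8794 features in place of 10444.

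The contrast was read again in the shROR2 arrays, which share no array with the comparison above. Of the 10444 called features 9860 (94.4%) had the same sign there. With 2 luminal arrays and a wider spread in the basal ones (median SD 0.209 against 0.108 in basal shLUC), 2929 features (10.6%) passed, 5.89% higher and 4.67% lower in basal cells, and 2658 of the shLUC calls passed in the same direction. Across the 4683 features called at least 2-fold, which are not independent replicates, Pearson's r between the changes was 0.947. They were chosen for their size in shLUC, which leaves out small changes and itself favours a high r. For the same choice the sizes in the other set are not compared. Those of single genes in the shROR2 arrays are given as values only. Acta2 changed by 7.19 there, Cnn1 by 7.17, Oxtr by 2.19, Prlr by -3.59 and Csn2 by -5.78. The difference between the hairpins itself passed for 1 of 27741 features (0.00360%), and 2393 had an unadjusted p under 0.05. That feature was Optc, a small matrix proteoglycan gene, named here for that count after its values were seen, and near the floor in the basal shROR2 arrays (-5.31, -5.31 and -5.26) as in the luminal ones. Optc passed the filter on dim probes only through the basal shLUC arrays, so this call supports nothing.

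**Figure D5:**
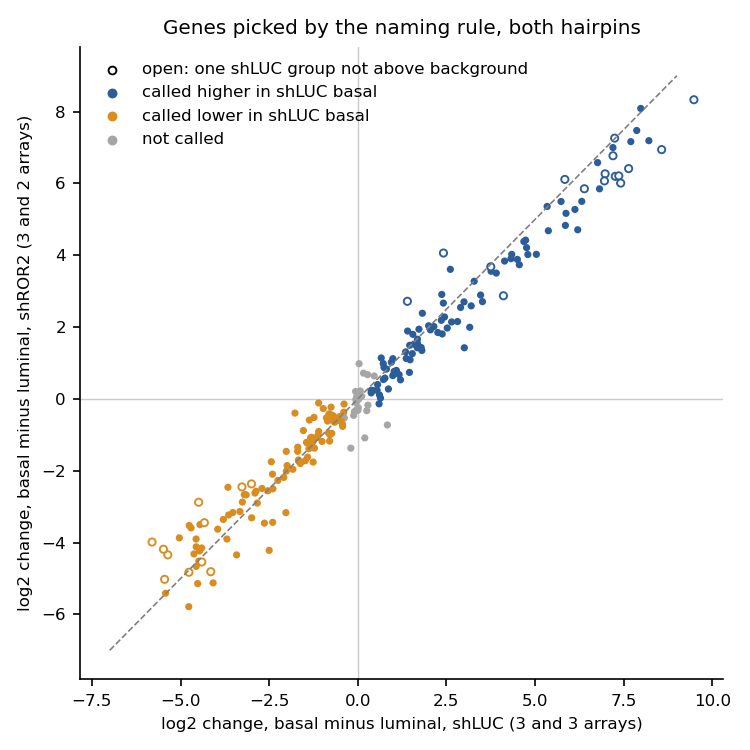
Log2 change, basal minus luminal, of the genes picked by the naming rule in shLUC (x axis, 3 arrays per layer) and shROR2 (y axis, 3 basal and 2 luminal arrays), with the line of equal change dashed and open points for genes with 1 shLUC layer not well above background. Acta2 lies at 8.21 and 7.19 and Csn2 at -4.77 and -5.78. Most of the genes were picked by their shLUC values, so their distance from the line is not read.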

How the data were processed

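Gene expression was measured on 1-colour Agilent mouse arrays, and the deposited files hold the intensity of each spot as processed by Agilent Feature Extraction 11.0.1.1, per the file headers. That processed intensity is already background-subtracted. The deposited value table gives the authors' own log2 values, used as an alternative. From the processed signal, log2 was taken and the 75th percentile of non-control spots subtracted in each array. Features flagged as above background on 3 or more shLUC arrays were kept, the brightest probe standing for a gene, and basal was compared with luminal in limma 3.58.1 (R 4.3.3) with Benjamini-Hochberg adjustment over all features. Calls have an adjusted p under 0.05. The 5 shROR2 arrays were fitted on their own in the same way, and the difference between hairpins was an interaction contrast over all 11 arrays. The fit was tested on simulated data.

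Probes were named through RefSeq accessions. Genes named in the text are the 12 largest changes each way, the 8 largest bounds each way, and for each of 31 lists up to 4 called members in the main and 3 in the other direction with the smallest p and the member with the largest p, plus probes called in opposite directions and a few fixed genes. Exceptions are marked where they stand, and some genes are not reported here. The lists and the comparison were chosen with earlier results of these data known. The plan named the mean signal for the normexp alternative, but the median signal, which the files hold, was used instead. The shared replicate numbers were not taken to pair the samples. Promoter windows came from RefSeq (GRCm38.p6). The arrays' number limits the precision.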

Additional observations from a re-analysis of the deposited data

Results flagged for a closer look

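Optc was the 1 feature whose change between the layers differed between the hairpins by a test of the difference itself (2.90, adjusted p = 0.0473 in the limma fit). It stood at -5.23, -5.15 and -5.25 in luminal and at -2.79, -2.03 and -2.47 in basal shLUC cells, at least 1.64-fold higher, while the change in the shROR2 arrays was -0.12. It was not well above background on any luminal shLUC array, and the shROR2 arrays read -5.27 and -5.07 in luminal and -5.31, -5.31 and -5.26 in basal cells, about the level of those dim luminal arrays. The size of the difference therefore rests on values near the floor. The filter on dim probes used the shLUC arrays alone, and Optc passed it only through the basal shLUC arrays, where it is bright. Its adjusted p is therefore given as a description and supports nothing.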

How the results depend on the processing

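The count of 10444 calls lay between 7955 (all 11 arrays in the fit) and 12100 (the authors' value table) under the other settings, with 41.4% to 51.4% of calls higher in basal cells. Leaving out 1 array at a time gave 8084 to 8791 calls. The replicate numbers were also fitted as a block, which gave 8554 calls. They were not taken as a pairing, since the deviations of same-numbered luminal and basal arrays correlated at 0.03, -0.10 and 0.05 over 12141 features.

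The count of 34 genes with probes called in opposite directions fell to 15 without a filter on dim probes, to 20 with a filter of 1 array, to 21 with the slide as a block, to 14 with the replicate block and to 21 with all 11 arrays. It was 13 to 18 with 1 array left out, and the cause was not tested. With the mean of all probes of a gene, Bglap3 stood at -1.34, Loxl2 at 0.48 and Mcam at 1.17, the reverse of their brightest probes. The secretion machinery median turned to -0.032 with quantile normalization and -0.069 in the authors' value table, and ran from -0.013 to 0.073 with 1 array left out. The Schwann and nerve median ran from -0.018 (without basal replicate 3) to 0.49, and the change of Itgam, not called, from -0.11 to 0.028 (without basal replicate 2). In the authors' value table list medians were mostly nearer 0, such as contraction at 3.79. The normexp setting (11795 calls) was added after the data were seen.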
